A study of Homo sapiens with 2 samples.

Results

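The genes described here are 10 genes of the cellular response to low oxygen: HIF1A, EPAS1, EGLN1, EGLN3, VEGFA, ADM, CA9, NDRG1, BNIP3 and ANKRD37. They were chosen by name from the 44591 genes of the deposited count table, with earlier results of these data known. They were measured in HSC-1, an established line of human skin squamous carcinoma, after transfection with a control siRNA (siNC) or with an siRNA against the long non-coding RNA LINP1 (siLINP1). The sample labels give transfection at 70% confluency, serum-free medium for 6 h, then 24 h with 10% serum, and culture at 37 °C with 5% CO2, while the study's methods give another confluency and another time to RNA extraction. The labels name no low-oxygen culture for either condition. There was 1 library per condition. Differences between siLINP1 and siNC therefore lack a replicate check, no p-value is given, and the intervals describe the counting of reads and nothing else.

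Gene counts summed to 18829544 reads for siNC and 15383081 for siLINP1, and were divided by size factors of 1.08 and 0.930 (median of ratios). A log2 fold change is siLINP1 over siNC, with a 95% Clopper-Pearson interval computed from how its reads divide between both libraries. LINP1 itself had 167 reads in siNC and 23 in siLINP1 (log2 fold change -2.65, interval -3.35 to -2.02). Of 10 squamous keratinocyte markers, 5 were under 1 RPKM (reads scaled to gene length in kilobases and to the library's total) in both libraries, among them KRT5 and TP63, so the squamous label is only partly carried by the RNA. Of 6 endothelial markers, 5 were under 1 RPKM in both libraries, with 9 reads of PECAM1 and 12 of VWF in each. The summed level of the squamous markers was 37.3 RPKM in siNC and 36.5 in siLINP1, that of 6 simple epithelium markers 341 and 349, and that of 6 mesenchymal markers 2033 and 1667. In both libraries 3 of the 6 simple epithelium markers, among them CDH1 and EPCAM, and 2 of the 6 mesenchymal markers were under 1 RPKM. Of the squamous sums, PERP held 14.3 and 21.1 RPKM and SFN 10.7 and 6.82. KRT18 alone held 279 and 311 RPKM of the simple epithelium sums, and VIM 1519 and 1278 of the mesenchymal sums. Single markers moved under these sums. Past 1.5-fold, 2 of 9 tested squamous markers were lower and 2 higher, 3 of 5 simple epithelium markers were lower and 0 higher, and 1 of 5 mesenchymal markers was lower and 1 higher. Of all genes with at least 10 reads, 13% were lower and 14.4% higher. Some of these marker calls rest on few reads: CDH1 (14 and 3, lower), KRT6A (31 and 45, higher), TP63 (6 and 8, higher) and COL1A2 (4 and 8, higher). The whole interval lay past 1.5-fold on the lower side for the keratin gene KRT14 (243 and 87 reads, log2 fold change -1.27), the tight junction gene CLDN4 (845 and 361 reads, -1.02) and the collagen gene COL1A1 (190 and 79 reads, -1.06). The part of these marker genes in the values below was not tested. In bulk RNA, fewer cells that express a gene and less RNA per cell cannot be told apart.

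The siRNAs listed by the study are shown because the seed of a guide strand, its bases 2 to 8, can also act on other transcripts. Both match the plus strand of LINP1 on chromosome 10 of GRCh37, the first from 6780757 to 6780775 and the second from 6780487 to 6780505, and the capitals mark the 7 bases that pair with the seed. The sources used here do not name which oligonucleotide was sequenced.
siLINP1_01: ccaactgcgggACTTCAGa
siLINP1_02: cactctccagcCTGCAAGa
Among the 10 hypoxia response genes, the seed site of siLINP1_01 was found in the annotated 3′UTR of EGLN1 alone, and that of siLINP1_02 in none. Of 14191 genes with at least 10 reads and an annotated 3′UTR, 24.2% and 21.3% hold these sites. None of the 4 genes that were lower past 1.5-fold holds either. The control siRNA and the other strand of each oligonucleotide were not searched. The part of seed sites in the values below was not tested.

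Cells sense oxygen through prolyl hydroxylases, enzymes of the EGLN family that mark the alpha subunits of the hypoxia-inducible factor (HIF) for destruction while oxygen is present. When oxygen falls, HIF1A or EPAS1 (HIF-2 alpha) protein accumulates, pairs with ARNT and binds hypoxia response elements in its target genes, which serve glucose use, acid balance, mitophagy and blood vessel growth. HIF alpha subunits are controlled mainly as proteins, so their RNA and their activity can differ. In many carcinomas CA9 is read as a marker of this pathway.

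HIF target genes differed in direction between the libraries. CA9, BNIP3 and NDRG1 were lower in siLINP1-treated cells by 4.49-fold, 2.02-fold and 1.68-fold, while ADM was higher by 1.53-fold and VEGFA by 1.25-fold. The genes of the HIF alpha subunits and of the main oxygen sensor EGLN1 differed by less than 1.5-fold. All 10 genes had at least 10 reads summed over both libraries and 9 had at least 100. Past 1.5-fold, the fold used by the study, 4 of the 10 were lower (CA9, BNIP3, NDRG1 and EGLN3) and 1 was higher (ADM). The study joined this fold to a limit on the P-value, which is not applied here. Of the 19840 genes with at least 10 reads, 13% were lower and 14.4% higher past this fold, and of the 13336 genes with at least 100 reads, 6.77% were lower and 8.72% higher. The whole interval lay past 1.5-fold for 3 of the 10 genes on the lower side and for 0 on the higher side, beside 2.06% and 3.98% of all genes tested. The median log2 fold change of the 10 genes was -0.38, and that of all genes tested was -0.023.

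**Figure D1:**
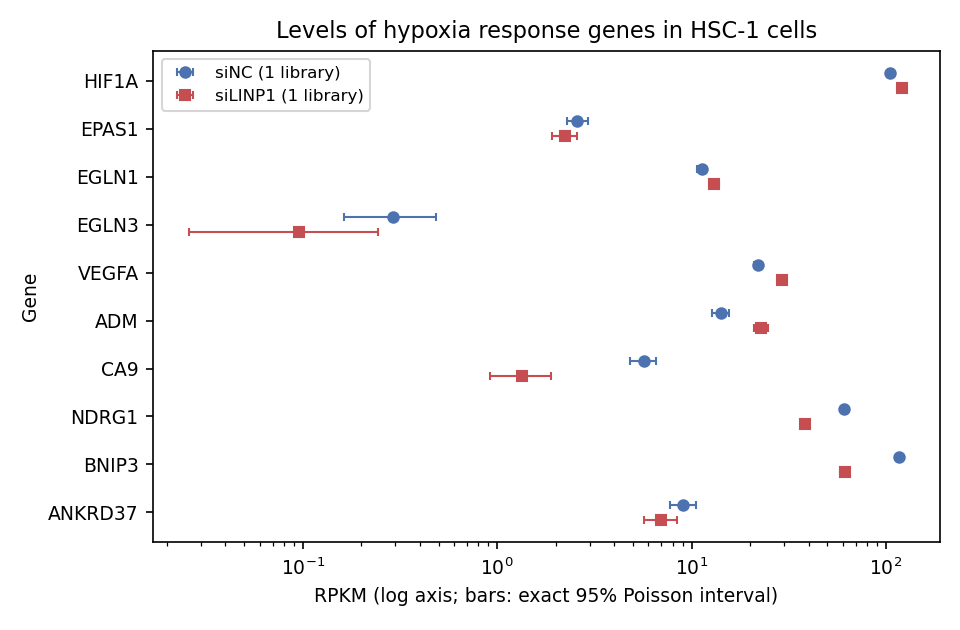
Level of each of the 10 hypoxia response genes in RPKM (log axis) in the siNC library (circles) and the siLINP1 library (squares), with exact 95% Poisson intervals of the counts. BNIP3 stood at 117 and 61.3 RPKM in siNC and siLINP1, CA9 at 5.67 and 1.34, and HIF1A at 105 and 121 RPKM.

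The alpha subunits were read at very different levels. HIF1A, which encodes the widely expressed alpha subunit, is at chromosome 14, 62162119 to 62214977 (plus strand, coordinates of the count table, GRCh37). It had 8724 reads in siNC and 8191 in siLINP1, or 105 and 121 RPKM. After scaling the log2 fold change was 0.12 (interval 0.075 to 0.16), a difference of 8.56%, and it turned to -0.032 once a trend with gene length and GC content was removed. EPAS1, whose product is known above all from endothelial cells and kidney tumours, is at chromosome 2, 46524541 to 46613842 (plus strand). It had 252 and 177 reads, or 2.59 and 2.23 RPKM, with a log2 fold change of -0.30 (-0.59 to -0.017). Per length, HIF1A RNA was thus 40.7 times as abundant as EPAS1 RNA in siNC and 54.4 times in siLINP1. The ratio of EPAS1 to HIF1A reads, which no scaling of the libraries can alter, differed by -0.42 on the log2 scale (interval -0.70 to -0.14).

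Transcripts on the opposite strand overlap HIF1A, and the strand setting of the counting is not given in the sources used here. HIF1A-AS2 shares 1221 bases with the 3′ end of HIF1A and had 2181 and 1612 reads (log2 fold change -0.23, interval -0.32 to -0.13). HIF1A-AS1, over the start of the gene, had 3 and 6 reads, and LOC105370526, which spans 32702 bases of it, had 16 and 28. With the reads of HIF1A-AS2 added to those of HIF1A, the log2 fold change was 0.056.

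The prolyl hydroxylases likewise stood far apart. EGLN1 encodes PHD2, the hydroxylase that sets HIF alpha levels in most cells, and is at chromosome 1, 231499497 to 231560790 (minus strand). It had 1505 reads in siNC and 1430 in siLINP1, or 11.3 and 13.1 RPKM, and a log2 fold change of 0.14 (0.030 to 0.24). EGLN3 encodes PHD3, a hydroxylase that HIF itself induces, and is at chromosome 14, 34393421 to 34420284 (minus strand). It had 15 reads in siNC and 4 in siLINP1. These few reads gave a log2 fold change of -1.70 with an interval from -3.75 to -0.047, so its difference was hardly measurable at this depth. Levels were 0.293 and 0.0955 RPKM. EGLN1P1 and EGLN3P1, pseudogenes of these hydroxylases by their names, had 30 and 40 reads and 6 and 0 reads, and reads of near-identical copies can be placed on either.

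Of the 6 members that are HIF targets, 4 were lower and 2 higher in siLINP1, each with an interval on 1 side of zero. Such intervals are common at this depth: of all genes with at least 1000 reads, 40.7% had theirs below zero and 31.7% above, and of all genes tested 25.6% and 23.0%. CA9 encodes carbonic anhydrase IX, an enzyme of the cell surface that handles the acid of glycolytic cells. It is at chromosome 9, 35673915 to 35681156 (plus strand). CA9 had 166 reads in siNC and 32 in siLINP1, that is 5.67 and 1.34 RPKM. Its log2 fold change of -2.17 (-2.76 to -1.61) was the lowest of the 10 genes and left 0.223 times the level of siNC.

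BNIP3 encodes a mitochondrial protein of the BCL2 family that promotes mitophagy under hypoxia. It is at chromosome 10, 133781187 to 133795517 (minus strand). BNIP3 had 3607 and 1541 reads, or 117 and 61.3 RPKM, and its log2 fold change was -1.02 (-1.10 to -0.93). In siNC it was the most abundant of the 10 genes per length, above HIF1A, and in siLINP1 it stood second. The pseudogenes BNIP3P1 and BNIP3P5 had 10 and 1 reads and 8 and 1 reads. The paralog BNIP3L (NIX), also a mitophagy receptor, had 1477 and 797 reads and a log2 fold change of -0.68 (-0.81 to -0.55). Its reads relative to those of BNIP3 were higher in siLINP1 by 0.34 on the log2 scale (0.19 to 0.49). BNIP3 was thus lower by more than its paralog, and this difference exceeded the counting error.

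ANKRD37, which encodes a small ankyrin repeat protein and is a known HIF-1 target, is at chromosome 4, 186317840 to 186321399 (plus strand). It had 161 and 101 reads, or 9.07 and 6.96 RPKM, and its log2 fold change of -0.46 (-0.84 to -0.095) did not reach 1.5-fold. UFSP2, on the opposite strand, shares 706 bases with it and had 442 and 370 reads (log2 fold change -0.047).

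VEGFA and ADM encode secreted factors that act on blood vessels, and both were read more in siLINP1. VEGFA, the vascular endothelial growth factor, is at chromosome 6, 43737946 to 43754224 (plus strand). It had 1568 reads in siNC and 1697 in siLINP1, or 22.0 and 29.2 RPKM, and its log2 fold change was 0.32 (0.22 to 0.42). An unnamed gene on the opposite strand, ENSG00000272114.1, overlaps VEGFA and had 9 and 5 reads. ADM, which encodes the vasodilator peptide adrenomedullin, is at chromosome 11, 10326527 to 10328949 (plus strand). It had 422 and 558 reads, or 14.1 and 22.8 RPKM, and its log2 fold change was 0.61 (0.43 to 0.80). The interval of ADM includes 1.5-fold, which is 0.585 on the log2 scale. VEGFA was set against the 4 targets that were lower. The direction of these ratios was thus fixed beforehand, and only their size is read. Relative to VEGFA, the reads of CA9 differed by -2.49 on the log2 scale (-3.04 to -1.93) and those of BNIP3 by -1.34 (-1.47 to -1.21). Those of NDRG1 differed by -1.08 (-1.20 to -0.95) and those of ANKRD37 by -0.79 (-1.16 to -0.41), all free of the scaling. ADM was not set against the lower targets in this way, and its reads relative to VEGFA were higher in siLINP1 by 0.29 (0.081 to 0.50).

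**Figure D2:**
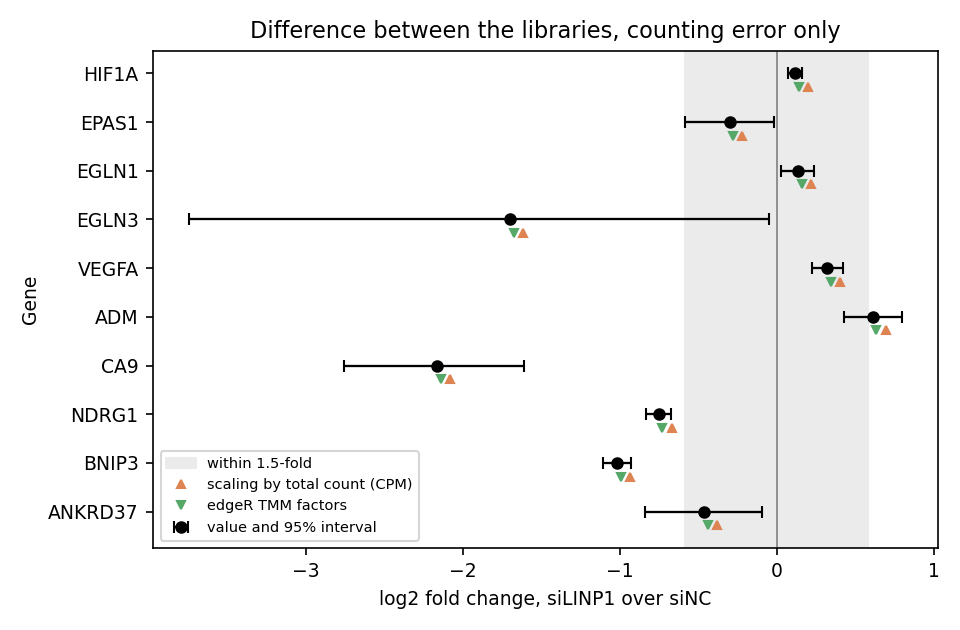
Log2 fold change of each hypoxia response gene, siLINP1 over siNC, with 1 library each (black, 95% interval of counting error), and the same value after scaling by the total count or by TMM factors (triangles). The grey band is 1.5-fold either way. CA9 at -2.17, BNIP3 at -1.02 and NDRG1 at -0.75 have their whole intervals left of the band, and ADM at 0.61 lies at its right edge.

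The start regions of 3 of the 4 targets with less RNA in siLINP1 are shown because HIF binds elements with the core letters ACGTG or GCGTG. The sequence of NDRG1 is not shown, and ANKRD37 was lower by less than 1.5-fold. Each sequence is the 300 bases before the gene start of the count table, read 5′ to 3′ on the gene's strand from GRCh37, at chr9:35673615-35673914 for CA9, chr10:133795518-133795817 for BNIP3 (minus strand) and chr4:186317540-186317839 for ANKRD37. Capitals mark ACGTG or GCGTG on either strand, so that a match on the other strand is printed as CACGT or CACGC.
CA9: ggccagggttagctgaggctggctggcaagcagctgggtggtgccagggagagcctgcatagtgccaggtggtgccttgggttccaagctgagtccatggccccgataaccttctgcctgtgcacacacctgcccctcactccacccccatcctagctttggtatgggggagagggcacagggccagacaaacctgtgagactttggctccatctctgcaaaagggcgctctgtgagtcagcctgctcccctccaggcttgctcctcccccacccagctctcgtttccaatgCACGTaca
BNIP3: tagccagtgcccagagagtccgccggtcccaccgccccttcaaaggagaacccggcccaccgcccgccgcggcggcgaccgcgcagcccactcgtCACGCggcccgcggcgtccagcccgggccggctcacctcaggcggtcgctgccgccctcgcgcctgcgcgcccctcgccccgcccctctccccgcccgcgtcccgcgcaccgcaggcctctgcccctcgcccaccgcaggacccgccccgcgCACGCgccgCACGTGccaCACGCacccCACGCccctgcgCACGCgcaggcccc
ANKRD37: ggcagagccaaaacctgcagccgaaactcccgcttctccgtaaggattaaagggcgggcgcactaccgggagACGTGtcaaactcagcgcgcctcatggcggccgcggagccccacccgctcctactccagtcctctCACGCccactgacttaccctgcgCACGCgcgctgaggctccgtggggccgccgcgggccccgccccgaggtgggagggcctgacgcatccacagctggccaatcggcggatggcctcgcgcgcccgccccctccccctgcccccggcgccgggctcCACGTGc

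CA9 has a single ACGTG, whose leftmost base lies 8 bases before the start (position -8). BNIP3 has 2 matches of ACGTG, which overlap on opposite strands as the palindrome CACGTG, and 5 of GCGTG, of which 4 lie with the palindrome in the last 53 bases (from position -53). ANKRD37 has 3 of ACGTG, 2 of them in a palindrome near the start, and 2 of GCGTG. NDRG1, which was lower past 1.5-fold, has 0 of ACGTG and 3 of GCGTG. ADM, which was higher in siLINP1, has 0 of ACGTG and 1 of GCGTG. Whether the matches go with the direction of the difference was not tested. GC content was 81% in the window of BNIP3, 75.3% in NDRG1, 72.3% in ANKRD37, 65.7% in ADM and 61.3% in CA9. Of the 9 genes whose window is reported, ACGTG was found before 4 (CA9, BNIP3, ANKRD37 and HIF1A) and GCGTG before 66.7%. Over the 19824 windows of genes with at least 10 reads, 22.7% held ACGTG, 42.5% held GCGTG and 54.4% held either motif. Of the 42 windows of further HIF targets described below, 47.6% held ACGTG, 54.8% held GCGTG and 71.4% held either. The windows of EGLN1 and of EGLN3, itself lower past 1.5-fold, held neither, which says nothing of elements elsewhere in these genes.

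**Figure D3:**
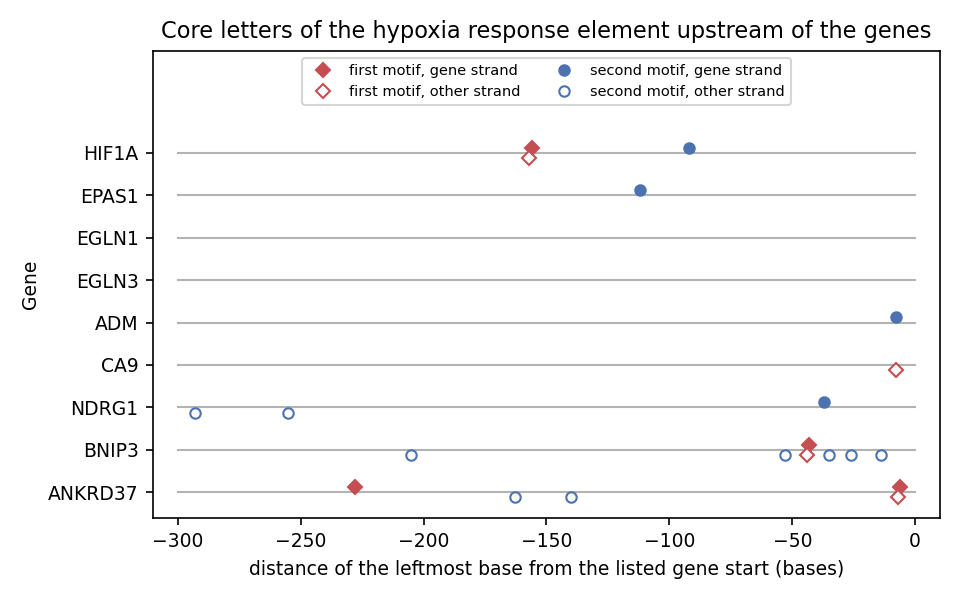
Positions of the core letters of the hypoxia response element in the 300 bases before the listed start of 9 of the genes, with diamonds for ACGTG and circles for GCGTG, filled on the strand of the gene and open on the other. BNIP3, ANKRD37, NDRG1 and HIF1A hold 3 or more matches, and EGLN1 and EGLN3 hold none in this window.

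NDRG1, a gene of growth arrest and differentiation that is strongly induced by hypoxia, is at chromosome 8, 134249414 to 134309547 (minus strand). It had 4001 reads in siNC and 2054 in siLINP1, or 61.1 and 38.4 RPKM. Its log2 fold change was -0.75 (-0.83 to -0.68), a level of 0.594 times that of siNC. Other genes of the family were lower as well, though each by less than 1.5-fold: NDRG3 with 1282 and 765 reads had -0.54, NDRG4 with 407 and 238 reads had -0.56 and NDRG2 with 158 and 105 reads had -0.38. NDRG3 reads relative to NDRG1 reads were higher in siLINP1 by 0.22 on the log2 scale (0.067 to 0.37).

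The order of the 10 genes by RPKM changed at 2 places between the libraries. In siNC it ran from BNIP3 over HIF1A, NDRG1, VEGFA, ADM, EGLN1, ANKRD37, CA9 and EPAS1 to EGLN3. In siLINP1, HIF1A stood above BNIP3 and EPAS1 above CA9. Neighbours in either order had Poisson intervals that did not overlap, which concerns counting only. The 6 targets together had 229 RPKM in siNC and 160 in siLINP1 (9925 and 5983 reads before any scaling). BNIP3 and NDRG1 made up most of these sums, and VEGFA and ADM went the other way.

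**Figure D4:**
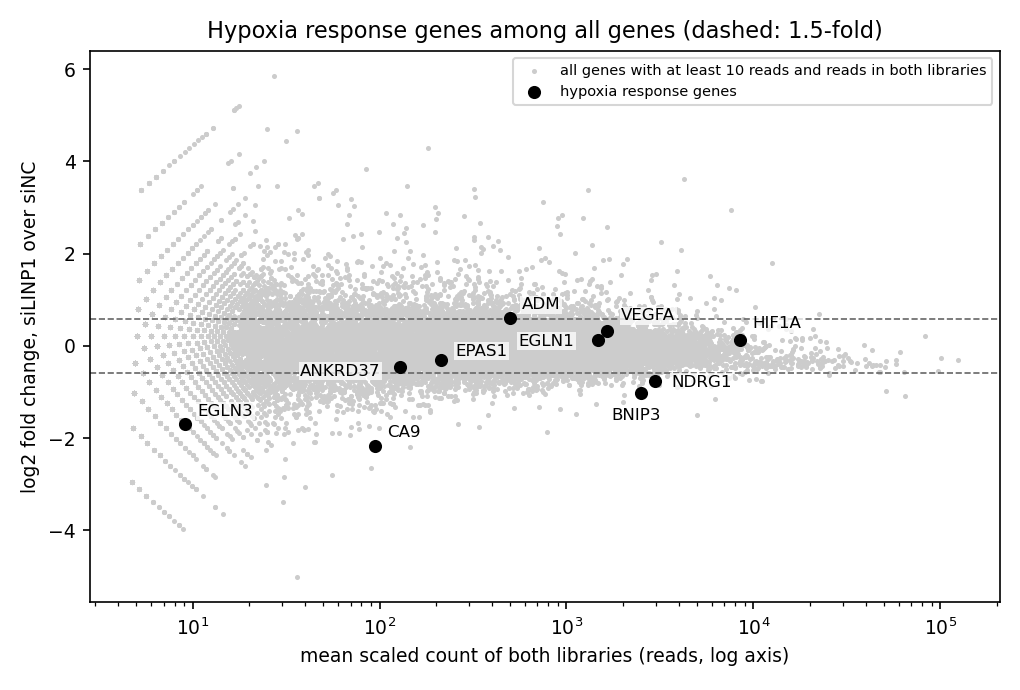
Log2 fold change against mean scaled count (log axis) for all genes with at least 10 reads and reads in both libraries (grey) and the 10 hypoxia response genes (black), with 1 library per condition and dashed lines at 1.5-fold. BNIP3, NDRG1 and CA9 lie under the lower edge of most genes of like depth, ADM at the upper line, and EGLN3 among genes of few reads that scatter widely.

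Further genes of oxygen sensing were counted against the 14.4% of all genes that were higher and the 13% that were lower past 1.5-fold. Those tested all had at least 100 reads, a depth at which 8.72% of all genes were higher and 6.77% lower. Of 6 other HIF subunits and coactivators, HIF3A had 0 reads in both libraries, and of the 5 tested 1 was higher past 1.5-fold. This was CITED2, an inhibitor that competes with HIF for its coactivators and is itself induced by hypoxia, with 1012 and 1471 reads and a log2 fold change of 0.75 (0.63 to 0.87). The partner genes ARNT and ARNT2 had 0.19 and 0.018, and the coactivator genes EP300 and CREBBP 0.18 and 0.12. Of 9 further genes of oxygen sensing and HIF degradation, 1 was lower past 1.5-fold and 1 higher. EGLN2, HIF1AN, which encodes the asparagine hydroxylase FIH, and VHL, the substrate receptor that binds hydroxylated HIF alpha, lay between 0.013 and 0.046. ELOB, an elongin of the VHL ligase, had 2730 and 1636 reads and a log2 fold change of -0.53 (-0.62 to -0.44). RBX1, its RING subunit, was lower past 1.5-fold at -0.63, and SIAH2, a ligase that acts on the EGLN proteins, was higher at 0.60. RBX1 and SIAH2 were picked once their values were known, and neither had its whole interval past 1.5-fold.

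A list of 42 further HIF targets, also chosen with earlier results of these data known, leaned to the lower side. Of the 40 with at least 10 reads, 11 were lower and 2 higher past 1.5-fold, that is 27.5% and 5% beside the 13% and 14.4% of all genes given above. Among the 39 with at least 100 reads the counts were 11 and 1, or 28.2% and 2.56%, beside 6.77% and 8.72% of all genes at that depth. The whole interval lay below zero for 25 of the 40 and above it for 7, that is 62.5% and 17.5%. Of all genes tested 25.6% and 23.0% did so, and of those with at least 1000 reads 40.7% and 31.7%. Depth matters here, since the 40 had a median of 1648.5 summed reads and all genes tested 437. Their median log2 fold change was -0.34. A call past 1.5-fold with the whole interval was found for 7 lower genes and 1 higher gene. These are 17.5% and 2.5% of the 40, beside 2.06% and 3.98% of all genes tested.

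Genes of glucose uptake and glycolysis, a group drawn after the values were seen, were among the lower ones past 1.5-fold, 3 of 9. Of all genes tested 13% were lower past this fold, and 6.77% of those with at least 100 reads. SLC2A1, which encodes the glucose transporter GLUT1, had 6420 reads in siNC and 3265 in siLINP1, a log2 fold change of -0.77 (-0.83 to -0.71). LDHA, lactate dehydrogenase, had 14951 and 7590 reads (-0.77, interval -0.81 to -0.73), and PGK1, phosphoglycerate kinase, had 12778 and 6622 reads (-0.74, interval -0.78 to -0.70). The other 6 genes of this group lay within 1.5-fold, 4 of them above zero. LDHA and PGK1 are among the most abundant genes, and the 488 genes with at least 10000 reads had a median log2 fold change of -0.20, with 4.30% lower past 1.5-fold.

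Among genes of mitochondrial proteins, FAM162A, a HIF-1 target linked to cell death, had 884 and 381 reads and a level 2.01-fold lower in siLINP1 (interval 1.78 to 2.27). Of the collagen-modifying enzymes, P4HA2, a prolyl hydroxylase of collagen, had 1290 and 669 reads (-0.74, interval -0.87 to -0.60), and PLOD1, a lysyl hydroxylase with 6560 and 4479 reads, had -0.34. PPFIA4, a liprin gene, had 609 and 185 reads, and its log2 fold change of -1.51 (-1.75 to -1.27) was the lowest of the list. MIR210HG, the host RNA of the hypoxia microRNA miR-210, had 93 and 30 reads (-1.42, interval -2.07 to -0.82), which is the level of the host RNA and not of the microRNA. DDIT4, an inhibitor of mTORC1 that hypoxia and other stresses induce, had 7024 and 5410 reads and -0.17. The other genes lower past 1.5-fold were BNIP3L, EFNA3, INSIG2 and VLDLR.

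The genes higher past 1.5-fold were BHLHE40, a transcriptional repressor of the clock and of hypoxia, with 953 and 1745 reads and a log2 fold change of 1.08 (0.97 to 1.20), and LOX, a collagen cross-linking enzyme, with only 28 and 52 reads. BHLHE40 was the 1 gene of the list with its whole interval past 1.5-fold on the higher side.

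**Figure D5:**
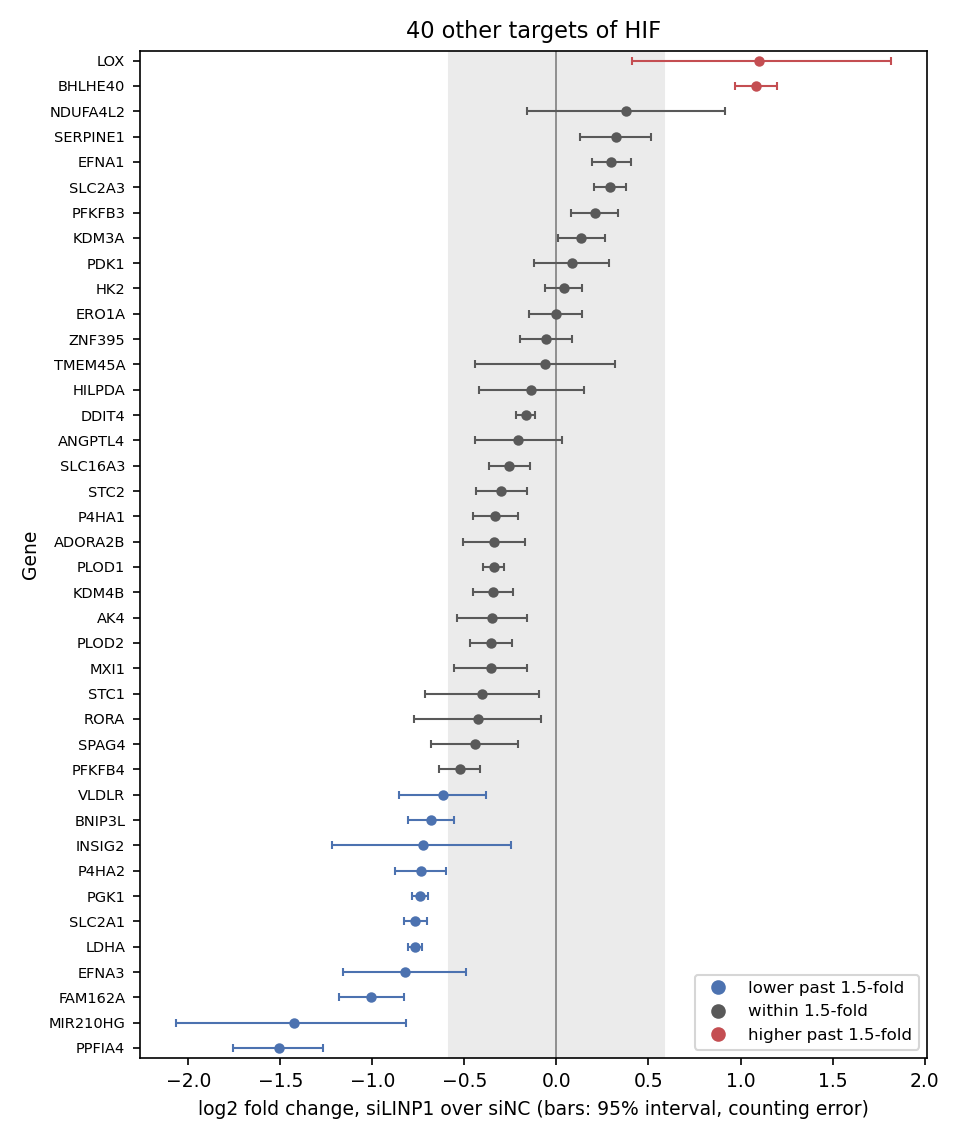
Log2 fold change, siLINP1 over siNC, of the 40 further HIF targets with at least 10 reads, 1 library per condition, with 95% intervals of counting error. The grey band is 1.5-fold either way. There are 11 genes left of it and 2 right of it, with PPFIA4 at -1.51 and LOX at the other end.

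The partners of the secreted members were also read. VEGFB had 1003 and 768 reads (log2 fold change -0.18) and VEGFC 718 and 726 (0.23), while the co-receptor genes NRP1 and NRP2 had 0.11 and 0.20. KDR, which encodes the main signalling receptor of VEGFA and was named after its values had been seen, had 111 and 48 reads (2-fold lower in siLINP1, interval 1.41 to 2.87). It was the 1 gene of 7 tested in this family past 1.5-fold, a share of 14.3% beside the 13% of all genes that were lower. All 7 had at least 100 reads, and of all genes at that depth 6.77% were lower. ADM2, a relative of adrenomedullin, had 379 and 454 reads (0.47). RAMP1 had 123 and 114 reads, whereas the receptor gene CALCRL had 16 and 9 (log2 fold change -0.62, interval -1.98 to 0.64) and the adrenomedullin-specific partners RAMP2 and RAMP3 had 0 and 0 and 0 and 1 reads.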

How the data were processed

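Total RNA of HSC-1 cells was sequenced on an Illumina HiSeq instrument. The authors aligned reads to GRCh37/hg19 with Tophat2 and deposited raw read counts per gene from HTSeq, and the submitters' notes also name HISAT, HISAT2 and Bowtie2. Versions, gene annotation and strand setting are not given in the sources used here. The deposited RPKM values equal the count over the listed gene length and the library total. The gene length in bases is another column that the authors deposited. The 12 columns of other samples were not used.

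The members and lists were chosen with earlier results of these data known, and the functional groups of the further HIF targets after their values were seen. Named were the 10 members, LINP1, overlapping genes and pseudogenes of members and, of each further pathway list, genes with the whole interval past 1.5-fold and the 4 with most reads. Of the cell type markers, some were named for the check of the label, after their values were seen. Other genes are named as chosen later or because a count of 5 or fewer, or a remainder, falls on them. Genes under 10 summed reads were left out of counts, and no pseudocount was used. A model of the spread across genes needs replicates and was not fitted. Intervals (95%) cover counting error only, since PCR copies of a molecule are not told apart. Ratios of 2 genes used the normal interval of the log ratio of 4 counts.

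Alternatives were scaling by total count (CPM), TMM factors, size factors from genes with at least 100 reads, minimums of 1 and 100 reads, pseudocounts of 1 and 5 and removal of a lowess trend (fraction 0.3) with GC content and gene length. Adding reads of HIF1A-AS2 or of the BNIP3 pseudogenes was chosen after seeing the data. The 3′UTRs and GC content came from GENCODE v44 lifted to GRCh37, which matched 82.0% of the genes with at least 10 reads by name or synonym (synonyms from RefSeq, GRCh38.p14). The start region of 1 gene is not reported here. The steps were tested on simulated data. The software was R 4.3.3 with edgeR 4.0.16 (TMM only), and Python 3.11.15 with scipy 1.17.1 for intervals, statsmodels 0.14.6 for the trend, numpy 2.4.6 and pandas 2.3.3 for tables and matplotlib 3.10.9 for figures.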

Additional observations from a re-analysis of the deposited data

How the results depend on the processing

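Under all 8 alternatives the number of hypoxia response genes higher past 1.5-fold was 1 and the number lower was 3 or 4, with their median log2 fold change between -0.38 and -0.30. The count of 3 comes from settings that leave out EGLN3, which has too few reads for them. CA9 ranged from -2.17 to -1.94, BNIP3 from -1.02 to -0.93, NDRG1 from -0.75 to -0.67 and ADM from 0.61 to 0.82. HIF1A, within 1.5-fold throughout, changed sign to -0.032 once the trend with length and GC content was removed, and EGLN1 then had 0.022; the cause was not tested. With at least 100 reads, 1 further HIF target was higher past 1.5-fold in place of 2, since LOX has fewer reads. Over all genes, 7048 were higher and 6456 lower past 1.5-fold with a minimum of 1 read. With at least 100 reads (13336 genes) they were 1163 and 903. Removal of the trend, also limited to genes with at least 100 reads (12483 genes), gave 981 and 671. Scaling by the total count moved the median of all genes from -0.023 to 0.059. No paired analysis was possible because each condition had 1 library, and no library could be left out. Depth limits genes with few reads, such as EGLN3 with 15 and 4.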
